A study of Mus musculus with 12 samples.

Results

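The response to Matrigel of 2 bipotential mouse embryonic liver (BMEL) lines, 9A1 and 14B3, was compared gene by gene as the difference between their responses, (Matrigel 14B3 minus basal 14B3) minus (Matrigel 9A1 minus basal 9A1), on log2 intensity. The comparison used 8 of the 12 arrays of the study, 2 each of basal 9A1, Matrigel 9A1, basal 14B3 and Matrigel 14B3. The other 4 arrays, of 5 day aggregate cultures, entered the same model and so share its estimate of the spread. All cells came from CBA/J x C57Bl/6J embryonic liver at dpc14, with no transgene or deletion named in the labels, and each line was isolated independently. Both 9A1 Matrigel arrays are labelled 10 days, while 1 of the 14B3 Matrigel arrays is labelled 5 days and the other 10 days. No number of days is given for basal culture. With 1 cell line on each side, a difference between lines is a difference between these cell lines, and no animals stand behind the duplicates of a line.

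BMEL cells are immortal cells of the foetal liver that can be turned towards hepatocytes or towards bile duct cells. Matrigel is an extract of basement membrane, rich in laminin, collagen IV and nidogen, on which liver epithelial cells stop spreading, arrange into cords or cysts and turn on genes of differentiated epithelium. The endoderm of the embryo gives rise to both liver and gut, and alpha-fetoprotein and several other foetal liver genes are also made in yolk sac or gut epithelium.

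Over 12393 genes, 42 responded more positively to Matrigel in 14B3 than in 9A1 (0.339% of genes tested) and 43 more negatively (0.347%), at an adjusted p under 0.05 in limma's moderated test. In line 14B3 the proteoglycan core gene Srgn, the complement gene C9, the endoderm factor gene Sox17 and the alcohol dehydrogenase gene Adh1 gained far more than in 9A1. In line 9A1 the foetal liver gene Afp, the fatty acid carrier gene Fabp1, brush border genes such as Enpep and Mep1a, and smooth muscle and collagen genes such as Acta2 and Col6a1 gained far more than in 14B3. Sizes ran from 1.00 to 4.47 log2 units among the 42, with a median of 1.82, and from 1.04 to 3.52 among the 43, with a median of 1.85.

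The promoter windows of 4 of these genes are shown, since 2 pairs of them share a motif. Each window runs from 250 bases before to 50 after the start of the gene in RefSeq (GRCm38.p6), 5′ to 3′ on the strand of the gene, with capitals marking the motif match. Afp (chr5:90490464-90490763, plus strand) and Tm4sf4 (chr3:57425160-57425459, plus strand) hold the HNF1 motif GTTAATNAT, with the first base of the match at -105 and -112 from the start of the gene, and they differed between the lines in opposite directions. Ctla2a (chr13:60936576-60936875, minus strand, 1 of 2 windows of this gene) and Ctla2b (chr13:60897398-60897697, minus strand), neighbouring copies of a protease inhibitor gene, hold the AP-1 motif TGANTCA at -129 and -143 and moved the same way.
Afp: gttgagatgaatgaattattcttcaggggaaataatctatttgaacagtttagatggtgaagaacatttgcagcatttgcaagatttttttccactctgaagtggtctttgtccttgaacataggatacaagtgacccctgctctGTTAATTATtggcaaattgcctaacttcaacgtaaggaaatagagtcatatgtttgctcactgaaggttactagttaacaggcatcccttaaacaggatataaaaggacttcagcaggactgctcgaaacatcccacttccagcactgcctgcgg
Tm4sf4: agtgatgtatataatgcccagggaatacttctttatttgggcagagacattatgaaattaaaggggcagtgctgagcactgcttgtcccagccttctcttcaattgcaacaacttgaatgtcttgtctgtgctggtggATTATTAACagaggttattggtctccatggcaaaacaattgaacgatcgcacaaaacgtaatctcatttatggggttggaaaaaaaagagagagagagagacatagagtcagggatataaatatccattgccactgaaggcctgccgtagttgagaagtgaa
Ctla2a: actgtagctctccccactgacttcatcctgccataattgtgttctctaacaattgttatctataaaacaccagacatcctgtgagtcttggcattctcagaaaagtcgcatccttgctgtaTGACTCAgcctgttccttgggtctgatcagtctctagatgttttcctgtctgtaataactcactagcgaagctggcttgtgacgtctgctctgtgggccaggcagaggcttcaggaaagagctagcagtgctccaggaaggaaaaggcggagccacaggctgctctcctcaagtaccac
Ctla2b: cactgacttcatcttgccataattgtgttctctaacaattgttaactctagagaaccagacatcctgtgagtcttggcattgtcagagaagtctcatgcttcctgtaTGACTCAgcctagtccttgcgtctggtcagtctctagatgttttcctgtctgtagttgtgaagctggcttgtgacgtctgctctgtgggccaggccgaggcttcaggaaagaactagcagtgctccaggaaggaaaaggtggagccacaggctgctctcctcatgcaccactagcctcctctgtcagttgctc
Aligned to each other, the Ctla2a and Ctla2b windows had 256 identical bases in 322 columns (79.5%), and probes for such close copies may read both genes, so their values may not be independent. Both strands were searched, and motifs may overlap. Windows were given for 9887 of the genes tested, for 36 of the 42 and for 33 of the 43. The HNF1 motif stood in 0.708% of the 9887 windows, and among the called genes only Tm4sf4 and Afp held it. The AP-1 motif stood in 7.69% of all windows, in 3 of the 36 and in 6 of the 33, and the TEAD motif CATTCC in 15.4% of all, in 11 of the 36 and in 8 of the 33. The CCAAT box stood in 42.3% of all windows, in 16 and in 14. The HNF4 motif CAAAGTCCA (0.708% of all) was matched in Acsbg1 alone among the called genes, the sterol element TCACCCCAC (0.688%) in Ihh, the CRE TGACGTCA (2.99%) in Cldn6, and the E2F motif TTTCCCGC (2.02%) in Mapk13. These matches describe letters in a window and no more.

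The arrays of the series were alike in scale, with a median intensity between 268 and 281. Genes of tissues that should be silent in these cells gave a guide to the low end, with 38 such genes that passed no test here. Their values on single basal and Matrigel arrays ran from 4.37 to 9.16 log2 units, with a median of 7.42 and a 95th percentile of 8.74. Of the 85 genes, 68 had a mean at or under 8.74 in at least 1 of the 4 groups, and 17 lay above it in all 4. Probes differ in background, and the files used here give no detection call, so a low value is not a sign that a gene is silent, and a fold change measured from one may be too small. The duplicates are described as biological, but nothing says that they came from separately grown cultures, so the p-values reflect only how far these arrays differ, which may be technical. In total RNA, fewer cells with a transcript and less transcript per cell cannot be told apart.

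The responses of the lines ran mostly together. Matrigel changed 2203 genes in 9A1 (17.8%, with 1203 up and 1000 down) and 2046 in 14B3 (16.5%, with 1104 up and 942 down). Of the genes changed in either line, 1363 changed in both in the same direction and 5 in opposite directions. Across all genes the 2 responses had an r of 0.827. This is a description only, since genes are not independent and the arrays of a line may not come from separate cultures. The difference between the lines passed the test in 85 genes (0.686%), and 839 genes (6.77%) had an unadjusted p under 0.05. The replicate numbers were taken to pair the arrays, although the labels do not say that a number marks a shared day or batch. In Matrigel 14B3 the number also separates 5 from 10 days. With the replicate number within each line as a block 165 genes passed (1.33%), 70 more positive and 95 more negative in 14B3, with all 85 among them. For each of the 85, the 4 possible Matrigel minus basal differences between arrays in one line lay clear of the 4 in the other, against 2082 of all genes (16.8%). The 85 were called on these same arrays, so this was largely set by the call and adds no separate evidence. A difference of at least 1 log2 unit in either direction was found in 284 genes (2.29%).

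**Figure D1:**
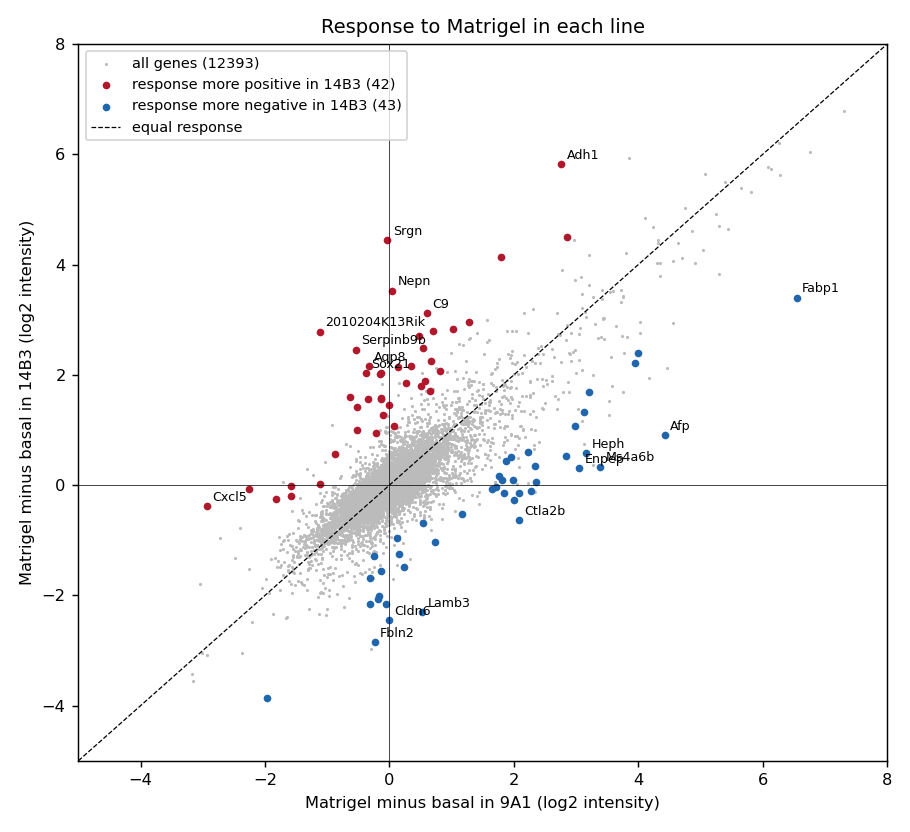
Each point is a gene, with the Matrigel minus basal difference in 9A1 on the horizontal axis and in 14B3 on the vertical axis, both in log2 intensity. Grey points are all 12393 genes, red the 42 and blue the 43 genes whose responses differed at an adjusted p under 0.05; most genes lie along the dashed line of equal response, and the coloured genes lie off it, often near 1 of the axes.

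Most of the 85 genes moved in 1 line alone by the test of each line's response, and the test of the difference is the one that called them. Among the 42, a set of 24 rose in 14B3 with no call in 9A1, 9 rose in both, 7 fell in 9A1 with no call in 14B3, and 2 (2010204K13Rik and Tm4sf1) fell in 9A1 and rose in 14B3. Among the 43, a set of 21 rose in 9A1 with no call in 14B3, 13 fell in 14B3 with no call in 9A1, 6 rose in both, 2 (Lss and Ncam1) rose in 9A1 and fell in 14B3, and Tnnt2 fell in both. The background for these counts is the share of genes called in each line, 9.71% up and 8.07% down in 9A1, and 8.91% up and 7.6% down in 14B3.

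In the account that follows, values are log2 intensities of replicates 1 and 2, and for Matrigel 14B3 the 5 day array comes first. Srgn encodes serglycin, the core protein of proteoglycans stored in secretory granules. It read 6.61 and 6.74 in basal 9A1, 6.44 and 6.85 in Matrigel 9A1, 6.88 and 6.93 in basal 14B3, and 11.40 and 11.28 in Matrigel 14B3. Both 14B3 Matrigel arrays stood far above the other 6, which lay between 6.44 and 6.93. The gain was 21.7-fold in 14B3 and the difference in response 4.47 ± 0.32 (SE, n = 2 arrays a group), with an adjusted p of 5.93e-05. Nepn, a leucine-rich proteoglycan known from the endoderm of the mouse embryo, read 6.69 and 6.42, then 6.62 and 6.56 in 9A1, and 6.25 and 6.41, then 9.62 and 10.09 in 14B3. Of the 8 arrays, those of Matrigel 14B3 were the high ones, with an 11.5-fold gain there and a difference of 3.49 ± 0.30 (adjusted p = 0.000324). In aggregates it was also higher in 14B3, at 9.37 and 8.80 against 6.71 and 7.03 in aggregate 9A1, a line difference of 2.21 (adjusted p = 0.000161).

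The transcription factor genes Sox17 and Sox21 also rose in 14B3 with no call in 9A1; they were named singly, and of 29 liver transcription factor genes measured none differed in response. Sox17, a transcription factor of the definitive endoderm and of the early bile duct, read 6.83 and 7.07 in basal and 6.51 and 7.10 in Matrigel 9A1. In 14B3 it was already higher in basal culture, at 9.03 and 9.17, and reached 11.06 and 11.19 in Matrigel. It was thus a line difference that widened, from 2.15 to 4.32 log2 units, and the difference in response was 2.17 ± 0.27 (adjusted p = 0.0038). The transcription factor gene Sox21 went from 7.66 and 7.64 to 9.86 and 9.49 in 14B3 and from 7.55 and 7.44 to 7.12 and 7.12 in 9A1, a difference of 2.41 ± 0.29 (adjusted p = 0.00334). In both genes all arrays of Matrigel 14B3 lay above all others of the comparison.

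Liver-type and digestive tract genes were among the genes favoured by 14B3. Adh1, which oxidises ethanol and retinol in liver and gut, rose in both lines, from 7.74 and 7.77 to 9.94 and 11.09 in 9A1 and from 7.64 and 7.39 to 13.29 and 13.37 in 14B3. The lines were close in basal culture, with no call (-0.24), and apart in Matrigel, after a 6.77-fold gain in 9A1 and a 56.3-fold gain in 14B3 (difference 3.06 ± 0.49, adjusted p = 0.0143). C9, the last component of the complement pore, made by hepatocytes, went from 8.04 and 8.38 to 11.09 and 11.57 in 14B3, while 9A1 read 7.70 and 8.09, then 8.19 and 8.82. Its difference in response was 2.51 ± 0.35 (adjusted p = 0.00664). The water channel gene Aqp8 went from 7.85 and 8.67 to 10.53 and 10.31 in 14B3 and read 7.26 to 7.76 on the 4 arrays of 9A1 (difference 2.49 ± 0.33, adjusted p = 0.00556). B4galnt2, a glycosyltransferase of gut epithelium, rose 3.48-fold in 9A1 and 17.6-fold in 14B3, to 11.06 and 11.07 (difference 2.34 ± 0.37, adjusted p = 0.0138). Clca1, a secreted protein of goblet cells, rose from 5.20 and 5.15 to 7.94 and 7.80 in 14B3 and read 4.98 to 5.71 in 9A1. Its difference was 2.23 ± 0.36 (adjusted p = 0.016) by the brighter of 2 probe sets and 0.09 by the dimmer. For each of these genes the 14B3 Matrigel arrays were the highest of the 8.

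Membrane, enzyme and other genes completed the largest positive differences. 2010204K13Rik, a gene on chromosome X known by its clone name, fell 2.17-fold in 9A1 and rose 6.89-fold in 14B3, from 9.98 and 9.76 to 12.67 and 12.63 (difference 3.90 ± 0.28, adjusted p = 5.93e-05). Tm4sf1, a membrane protein of the L6 family, fell from 9.40 and 9.02 to 8.65 and 8.52 in 9A1 and rose from 8.27 and 8.01 to 9.87 and 9.60 in 14B3. The order of the lines was therefore reversed between the cultures, with a difference of 2.23 ± 0.24 (adjusted p = 0.00187), although a dim second probe set gave -0.18. Its relative Tm4sf4 rose in both lines, from 12.30 and 12.36 to 13.17 and 13.11 in 9A1 and from 11.13 and 11.10 to 13.18 and 13.19 in 14B3. The lower basal level of 14B3 thus came up to that of 9A1 (difference 1.26 ± 0.18, adjusted p = 0.00711); this gene was singled out after its values were seen. Serpinb9b, a serine protease inhibitor gene, showed 11.46 and 10.67, then 10.75 and 10.30 in 9A1, and 9.22 and 9.07, then 11.64 and 11.55 in 14B3 (difference 2.99 ± 0.47, adjusted p = 0.013). Gstt2, a glutathione transferase gene, rose from 6.80 and 6.89 to 9.43 and 8.34 in 14B3 and read 6.37 to 6.71 in 9A1, with a difference of 2.17 ± 0.41 (adjusted p = 0.0329). The 2 arrays of Matrigel 14B3 disagreed by 1.09 for Gstt2, the most of any of the 85.

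A smaller group was set apart by what 9A1 lost. Cxcl1 and Cxcl5, chemokines that draw neutrophils, were highest in basal 9A1. Cxcl5 read 8.41 and 8.90 there, 5.96 and 5.50 in Matrigel 9A1, 5.57 and 5.54 in basal 14B3, and 5.31 and 5.04 in Matrigel 14B3. Cxcl1 read 9.09 and 8.94, then 6.80 and 6.72 in 9A1, and stayed between 5.20 and 5.59 on the 4 arrays of 14B3. They fell 7.65-fold and 4.77-fold in 9A1, and the differences in response were 2.55 ± 0.27 (adjusted p = 0.00158) and 2.18 ± 0.23 (adjusted p = 0.00158). For both genes 14B3 was low in both cultures, so the positive difference is a fall in 9A1 and not a rise in 14B3. Cd34, a surface sialomucin of blood progenitors and endothelium, likewise fell 2.99-fold in 9A1, from 7.83 and 7.60 to 6.10 and 6.17, and read 6.33 to 6.43 throughout 14B3 (difference 1.56 ± 0.20, adjusted p = 0.00411).

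The largest negative difference was in Afp, the main serum protein of the foetal liver. It read 8.11 and 7.90 in basal 9A1, 12.09 and 12.76 in Matrigel 9A1, 10.53 and 10.45 in basal 14B3, and 11.32 and 11.46 in Matrigel 14B3. Basal 14B3 already held more Afp signal than basal 9A1, by 2.48 log2 units (adjusted p = 0.00784), and in Matrigel the order turned, with 9A1 above on both arrays but no call for that difference (-1.04, adjusted p = 0.26). The gain was 21.4-fold in 9A1, and the 1.87-fold difference in 14B3 was not called. The difference in response was -3.52 ± 0.56 (adjusted p = 0.014), and of 4 other probe sets for Afp 2 gave -3.73 and -3.51 and 2 dimmer ones -0.62 and -0.28.

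Fabp1, the liver and gut carrier of fatty acids, rose in both lines from unlike starting levels. In 9A1 it went from 6.73 and 7.11 to 13.25 and 13.67, and in 14B3 from 9.15 and 10.59 to 13.15 and 13.39. The lines overlapped in Matrigel and not in basal culture, with a 93.3-fold gain in 9A1 against 10.6-fold in 14B3 (difference -3.14 ± 0.49, adjusted p = 0.0131). Scd1, the desaturase that makes oleate, rose 4.02-fold in 9A1, from 9.66 and 10.14 to 11.93 and 11.90, and was at 10.89 and 10.96, then 10.33 and 10.96 in 14B3 (difference -2.29 ± 0.31, adjusted p = 0.00652).

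The hepatocyte genes Ambp, Crp and Abcc2 rose more in 9A1, while Adh1 and C9, given above, rose more in 14B3. Ambp, the precursor of alpha-1-microglobulin and bikunin, went from 6.57 and 6.66 to 8.97 and 8.81 in 9A1 and read 7.03 and 6.83, then 6.79 and 6.85 in 14B3 (difference -2.38 ± 0.44, adjusted p = 0.0317). Crp, the C-reactive protein, went from 6.31 and 6.74 to 9.10 and 8.66 in 9A1 and stayed between 6.37 and 6.71 in 14B3 (difference -2.30 ± 0.43, adjusted p = 0.032). For both genes the Matrigel 9A1 arrays were the only ones apart from the rest. Abcc2, the exporter of conjugated bilirubin into bile, rose 15.5-fold in 9A1, to 10.02 and 9.77, and 4.67-fold in 14B3, to 8.88 and 8.23 (difference -1.73 ± 0.28, adjusted p = 0.0148). Of 45 hepatocyte enzyme and transporter genes measured, 3 were called more negative in 14B3 (6.67%, against 0.347% of all genes). Adh1 alone was called more positive (2.22%, against 0.339%). The median response of the 45 was 0.049 in 9A1 and 0.047 in 14B3. Of 38 acute phase and complement genes, Crp was called more negative and C9 more positive (2.63% each).

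A set of 44 hepatocyte secreted protein genes was measured. In 9A1 22 of the 44 rose (against 9.71% of all genes) and none fell, and in 14B3 13 rose (29.5%, against 8.91%) and 1 fell. Their median response was 0.86 in 9A1 and 0.48 in 14B3, 36 of the 44 had a negative difference (6438 of 12393 over all genes), and the median difference was -0.28 against -0.01 over all genes. Afp and Ambp, 2 of the 44 (4.55%, against 0.347% called lower over all genes), passed the test of the difference. Alb, albumin, rose in both lines: it read 8.17 and 8.45, then 12.46 and 12.63 in 9A1, and 7.97 and 7.71, then 12.43 and 12.61 in 14B3, with a difference of 0.44 ± 0.86 (adjusted p = 1.0). Apoa1, the main protein of high density lipoprotein, rose 39.2-fold and 25.9-fold (difference -0.60 ± 0.31, adjusted p = 0.901), and Ttr, the thyroxine carrier, 7.59-fold and 6.77-fold (difference -0.17 ± 0.53, adjusted p = 1.0). These misses do not show that the lines respond alike, since the SE for Alb is large.

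**Figure D2:**
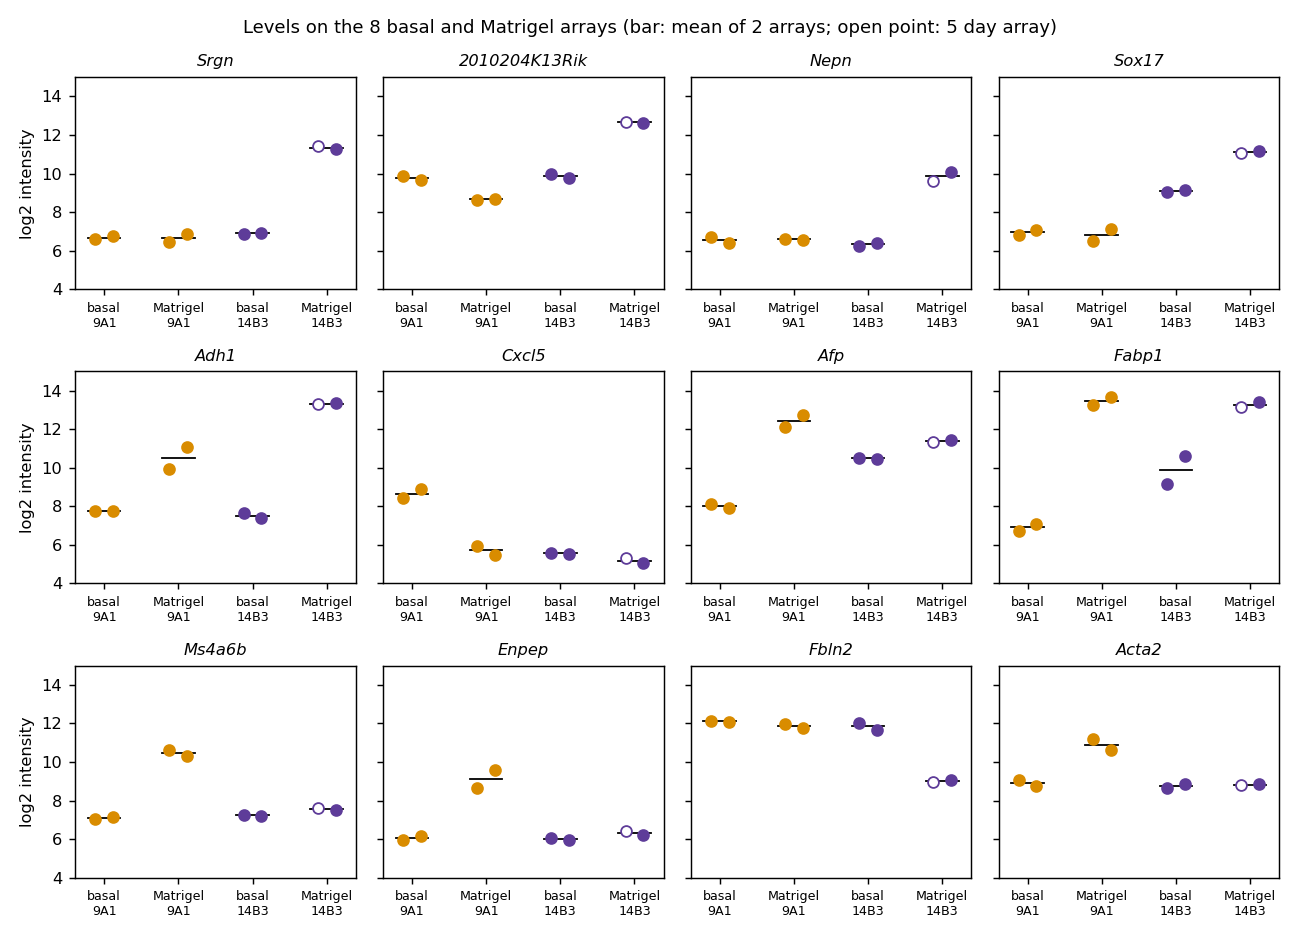
Log2 intensity on each of the 8 basal and Matrigel arrays for 12 genes, in the order basal 9A1, Matrigel 9A1, basal 14B3 and Matrigel 14B3. Points are single arrays, bars the mean of 2, and the open point is the 5 day array; Srgn, 2010204K13Rik, Nepn, Sox17 and Adh1 are highest in Matrigel 14B3, Cxcl5 is high only in basal 9A1, Afp, Ms4a6b, Enpep and Acta2 are highest in Matrigel 9A1, and Fbln2 is low only in Matrigel 14B3.

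Several genes of intestinal epithelium rose more in 9A1. Enpep, aminopeptidase A of brush borders, read 5.97 and 6.16, then 8.66 and 9.57 in 9A1, and 6.07 and 5.95, then 6.43 and 6.20 in 14B3. It rose 8.27-fold in 9A1 with no call in 14B3, a difference of -2.74 ± 0.36 (adjusted p = 0.00508). Heph, the ferroxidase through which gut cells release iron, went from 4.71 and 4.66 to 7.95 and 7.73 in 9A1 and from 4.78 and 4.80 to 5.25 and 5.48 in 14B3 (difference -2.58 ± 0.26, adjusted p = 0.00149). Of the 8 arrays those of Matrigel 9A1 were the high ones in both genes. Aggregate 9A1 read higher still, at 12.38 and 12.76 for Enpep and 8.58 and 8.98 for Heph, with line differences that were also called (adjusted p = 1.24e-07 and 7.14e-07). Tff3, the trefoil peptide of goblet cells, rose 7.16-fold in 9A1, from 8.43 and 8.66 to 10.98 and 11.79, and reached 9.12 and 9.27 from 8.70 and 8.62 in 14B3 (difference -2.31 ± 0.41, adjusted p = 0.0246). Guca2a, the gut peptide guanylin, rose in both lines, 9.23-fold in 9A1 and 3.24-fold in 14B3 (difference -1.51 ± 0.27, adjusted p = 0.0272). Ccl25, a chemokine of the small intestine and thymus, rose 15.9-fold in 9A1, to 11.03 and 11.15, and 5.29-fold in 14B3, to 9.91 and 9.87 (difference -1.59 ± 0.24, adjusted p = 0.0115). Mep1a, a subunit of the brush border protease meprin, was called as well (-1.59 ± 0.29, adjusted p = 0.0277); it was picked out after its values were seen.

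Of 38 intestinal and gastric epithelium genes measured, 28 rose (73.7%, against 9.71% of all genes) and 1 fell in 9A1, and 23 rose (60.5%, against 8.91%) and 1 fell in 14B3. The median response was 1.82 in 9A1 and 0.87 in 14B3, and the median difference -0.29, with 26 of 38 negative (6438 of 12393 over all genes). The test of the difference called 4 of them (10.5%, against 0.347% of all genes), all more negative in 14B3 and none more positive, or 5 with the replicate block. That direction holds for the list as drawn up. B4galnt2 and Clca1, more positive in 14B3, and Heph and Ccl25, more negative, are outside it. The gut list thus rose in both lines, and few of its members passed the test of unequal rise.

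Some genes that rose in 9A1 are best known from blood cells. Ms4a6b, a membrane gene of the Ms4a family known from leukocytes, read 7.05 and 7.13, then 10.65 and 10.31 in 9A1, and 7.27 and 7.22, then 7.64 and 7.52 in 14B3 (difference -3.06 ± 0.20, adjusted p = 5.93e-05). Ctla2b read 7.03 and 6.57, then 9.03 and 8.73 in 9A1, and 7.27 and 6.56, then 6.29 and 6.27 in 14B3 (difference -2.72 ± 0.35, adjusted p = 0.00411), and its copy Ctla2a gave -1.99 ± 0.29. For these genes the Matrigel 9A1 arrays stood above the other 6. Ms4a6b was also higher in aggregate 9A1, at 9.65 and 9.77 against 7.51 and 7.52 in aggregate 14B3, while Ctla2b was at 5.63 and 5.15 against 5.18 and 5.40. Csf1r, the receptor of macrophage colony stimulating factor, rose 1.06 in 9A1, with a difference of -0.92 (adjusted p = 0.087), and Ptprc, the defining blood cell marker, read 5.37 to 6.22 on the 8 arrays. Of 33 haematopoietic cell genes measured, none differed in response at the adjusted threshold. The log2 of their summed intensity was 12.46 to 12.62 in basal and 12.56 to 12.85 in Matrigel 9A1, and 12.52 to 12.67 and 12.43 to 12.71 in 14B3.

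Matrix and basement membrane genes, the products cells add to the gel, differed in the same direction for 5 called members and by different routes. These were 2 of 38 genes of basement membrane and its receptors (5.26%) and 3 of 45 interstitial and matricellular matrix genes (6.67%). Over all genes 0.347% were called in that direction. Col6a1 and Col5a1, chains of a beaded and a fibrillar collagen, rose in 9A1. Col6a1 went from 7.83 and 7.98 to 10.44 and 9.52 there and read 7.27 to 7.71 in 14B3 (difference -2.22 ± 0.34, adjusted p = 0.013), and Col5a1 went from 8.13 and 8.43 to 10.45 and 9.72 and read 8.16 to 8.44 in 14B3 (difference -1.71 ± 0.30, adjusted p = 0.0224). Fbln2, a fibulin of elastic matrix and basement membranes, fell in 14B3 instead, from 12.04 and 11.67 to 8.96 and 9.06, and read 11.75 to 12.14 on the 4 arrays of 9A1 (difference -2.61 ± 0.31, adjusted p = 0.00334). The Matrigel 9A1 arrays stood above the rest for the collagens, and the Matrigel 14B3 arrays below the rest for Fbln2.

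Lamb3, a chain of the epithelial laminin-332, was higher in basal 14B3 than in basal 9A1, at 11.67 and 11.58 against 9.60 and 9.76. It fell 4.93-fold in 14B3, to 9.60 and 9.05, and read 10.46 and 9.95 in Matrigel 9A1 (difference -2.82 ± 0.55, adjusted p = 0.0433). Nid1, the nidogen that links laminin and collagen IV, read 11.20 and 11.46, then 11.48 and 11.62 in 9A1, and 9.38 and 9.00 in basal 14B3, with a Matrigel 14B3 mean of 7.70 ± 0.42 (SD, n = 2). It was lower in 14B3 in both cultures, and further so in Matrigel (difference -1.71 ± 0.29, adjusted p = 0.0193), but its other probe set gave -0.15. Over 38 genes of basement membrane and its receptors 5 rose and 1 fell in 9A1, while 2 rose and 6 fell in 14B3, with a median difference of -0.17. The shares up, 13.2% and 5.26%, stand against 9.71% and 8.91% of all genes, near the background, and the shares down, 2.63% and 15.8%, against 8.07% and 7.6%. Over 45 interstitial and matricellular matrix genes 8 rose and 4 fell in 9A1, and 2 rose and 6 fell in 14B3. The median difference was -0.26, with 33 of 45 negative (6438 of 12393 over all genes). The shares up, 17.8% and 4.44%, and down, 8.89% and 13.3%, stand against the same all-gene shares, and that of falls in 9A1 is near it.

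The contractile genes Acta2 and Tagln rose in 9A1 with no call in 14B3, as did the collagens Col6a1 and Col5a1. Acta2, smooth muscle actin, read 9.08 and 8.74, then 11.17 and 10.62 in 9A1, and 8.63 and 8.86, then 8.82 and 8.84 in 14B3 (difference -1.90 ± 0.26, adjusted p = 0.00656). Its second probe set, with a low mean level of 5.58, gave -0.1. Tagln, which binds actin in smooth muscle, read 7.48 and 7.50, then 9.49 and 8.90 in 9A1, and 7.17 to 7.49 on the 4 arrays of 14B3 (difference -1.75 ± 0.30, adjusted p = 0.0229). Tnnt2, troponin T of heart muscle, fell in both lines, 3.90-fold in 9A1, to 8.76 and 9.09, and 14.5-fold in 14B3, to 6.37 and 6.75 (difference -1.90 ± 0.30, adjusted p = 0.0147). The 3 genes share the sign of the difference and not the course. Of 37 contractile and mesenchymal genes measured, 4 rose and 4 fell in 9A1 (10.8% each, against 9.71% and 8.07% of all genes), and none rose and 8 fell in 14B3 (21.6% down, against 7.6%), and these 3 (8.11%, against 0.347%) differed in response. In Matrigel 9A1, replicate 1 was the higher of the 2 arrays for Acta2, Tagln, Col5a1 and Col6a1. Stellate cells also make these proteins. Over 19 hepatic stellate cell genes measured, the log2 of the summed intensity was taken. It went from between 12.43 and 12.52 to between 12.76 and 12.95 in 9A1. In 14B3 it went from between 12.03 and 12.07 to between 11.89 and 12.03. This sum includes Acta2, the brightest of the list in Matrigel 9A1 (11.17), so it does not speak for the other members. The median response of the 19 was -0.008 in 9A1 and -0.06 in 14B3. Of those 19, 3 rose in 9A1 (15.8%, against 9.71% of all genes) and none in 14B3 (against 8.91%), which on so few genes is near the background. Acta2 alone differed in response (5.26%, against 0.347% of all genes). The stellate marker Lrat read 4.91 to 5.11 on the 8 arrays, Des 7.60 to 8.04 and Gfap 7.77 to 8.18. Col3a1, a collagen of fibroblasts, read 5.17 and 5.24, then 8.22 and 6.28 in 9A1, and 5.21 to 5.31 in 14B3 (difference -2.02, adjusted p = 0.239). The part of such cells in the result was not tested.

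Junction and adhesion genes and signals gave single calls. Cldn6, a claudin of embryonic epithelia, was high in basal 14B3, at 10.25 and 9.53, and fell 5.45-fold to 7.30 and 7.59, while 9A1 read 6.30 to 6.64 throughout (difference -2.44 ± 0.32, adjusted p = 0.00508). Ncam1, an adhesion molecule that marks liver progenitors and stellate cells, rose from 9.74 and 9.70 to 10.54 and 10.37 in 9A1 and fell from 10.09 and 10.02 to 9.20 and 8.85 in 14B3 (difference -1.77 ± 0.21, adjusted p = 0.00334). Its next probe set gave -1.70, but 4 dimmer ones gave -0.55, -0.15, -0.32 and -0.02, and with the mean of the 6 the difference was -0.75 and no longer called (adjusted p = 0.0771). It is 1 of the 2 genes whose responses were called in opposite directions with 9A1 rising. Pdgfc, a ligand of the platelet-derived growth factor receptors, fell 2.39-fold in 14B3 with no call in 9A1 (difference -1.41 ± 0.24, adjusted p = 0.0204).

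A further set of negative differences arose because 14B3 began higher. G0s2, an inhibitor of the triglyceride lipase, read 9.33 and 9.59 in basal 14B3 and 6.99 and 7.62 in its Matrigel culture, against 6.95 to 7.46 on the 4 arrays of 9A1 (difference -2.10 ± 0.32, adjusted p = 0.0128). Chac1, a glutathione-degrading enzyme of the amino acid stress response, read 10.26 and 9.49, then 7.94 and 7.79 in 14B3, and 7.71 to 7.95 in 9A1 (difference -1.84 ± 0.30, adjusted p = 0.0173). In both genes the basal 14B3 arrays stood above the other 6, and no line difference was called in Matrigel (0.10 and 0.14). Of 40 unfolded protein and amino acid stress genes, 6 fell (against 8.07% of all genes) and 4 rose in 9A1, and 15 fell (37.5%, against 7.6%) and 4 rose in 14B3. The 10.0% that rose in each line is near the 9.71% and 8.91% of all genes, and the median line difference went from 0.43 in basal culture to 0.16 in Matrigel. Chac1 alone (2.5%, against 0.347%) passed the test of the difference, and 4 did with the replicate block.

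The cholesterol synthesis list was the only 1 of those examined in which all measured members had the same sign. Lss, lanosterol synthase, rose from 9.70 and 9.78 to 10.18 and 10.38 in 9A1 and fell from 11.02 and 10.84 to 10.45 and 10.05 in 14B3 (difference -1.23 ± 0.23, adjusted p = 0.0379). Its lines were 1.19 apart in basal culture and -0.03 in Matrigel. All 19 measured genes of cholesterol synthesis and uptake had a negative difference, with a median of -0.61; 5 rose (26.3%, against 9.71% of all genes) and none fell in 9A1, and none rose and 3 fell (15.8%, against 7.6%) in 14B3. The median response was 0.29 in 9A1 and -0.45 in 14B3, and the median line difference went from 0.66 in basal culture to 0.08 in Matrigel. Lss alone passed the test of the difference (5.26%, against 0.347% of all genes), and with the block Tm7sf2 also passed. The genes of this pathway share a regulator, so 19 signs are not 19 independent observations.

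Cell cycle lists fell in both lines. All 37 mitosis genes measured fell in 9A1 and 34 in 14B3, with medians of -1.40 and -1.25, and 27 of 33 DNA replication genes fell in 9A1 and 14 in 14B3, with medians of -1.08 and -0.68, where 8.07% and 7.6% of all genes fell. None of either list passed the test of the difference, with or without the block. Of the 33 replication genes 29 had a positive difference (median 0.39), against 5955 of 12393 over all genes. Mki67, the proliferation antigen, fell 3.14-fold in 9A1 and read 10.40 and 10.21, then 9.26 and 9.49 in 14B3 (difference 0.73 ± 0.41, adjusted p = 0.956). Of 31 hypoxia and glycolysis genes, 10 rose in 9A1 (32.3%, against 9.71%) and 4 in 14B3 (12.9%, near the 8.91% of all genes), the median difference was -0.32, and none passed. In the oxidative stress and glutathione list, 41 genes were measured. Of these, 14 rose (34.1%, against 9.71%) and 4 fell in 9A1, and 17 rose (41.5%, against 8.91%) and 3 fell in 14B3. Gstt2 alone differed in response (2.44%, against 0.339% of all genes).

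**Figure D3:**
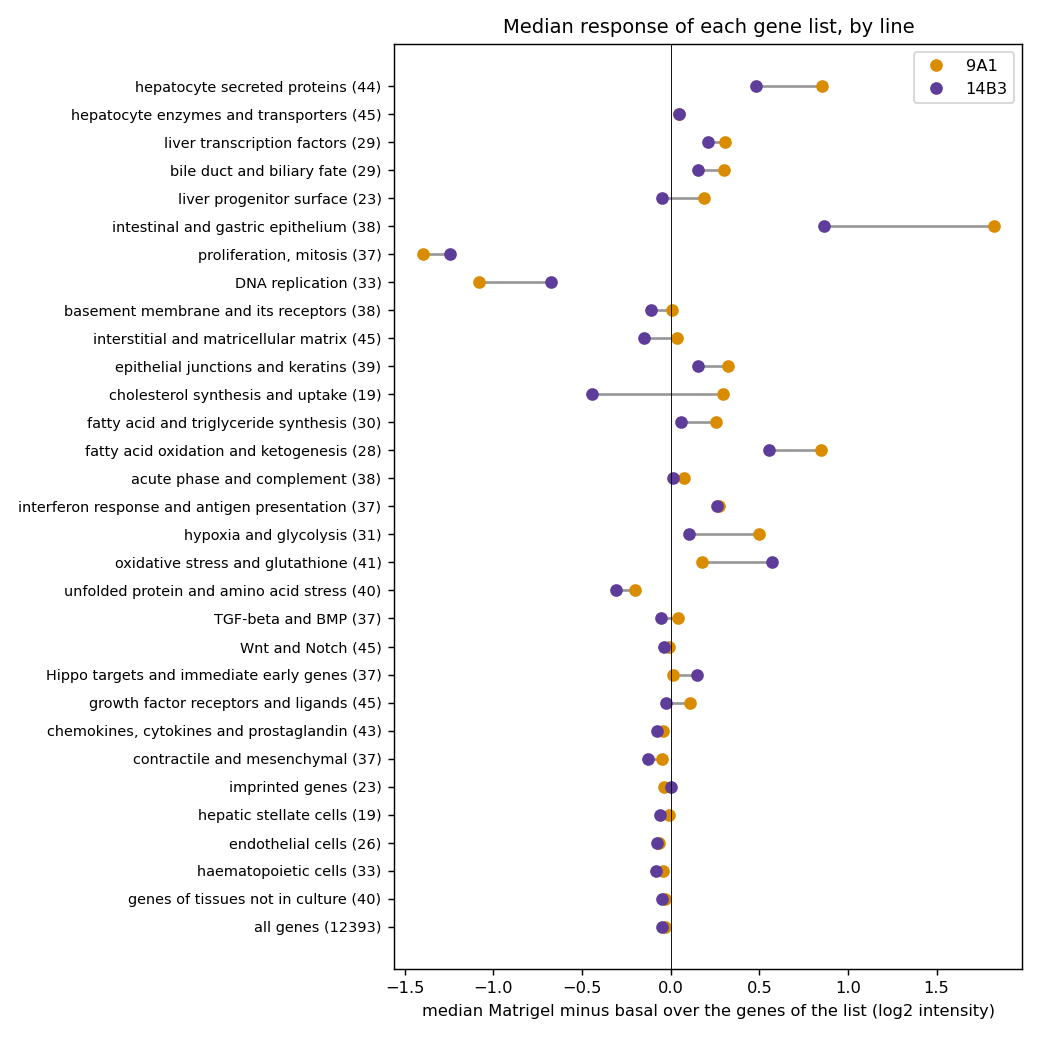
Median Matrigel minus basal difference (log2 intensity) over the measured genes of each list, in 9A1 (orange) and in 14B3 (purple), with the number of genes in brackets and all genes at the foot. The widest gaps are in intestinal and gastric epithelium, 1.82 against 0.87, and in cholesterol synthesis, 0.29 against -0.45; the lists of other cell types sit near 0 in both lines.

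Of the hepatoblast and bile duct markers fixed by name, Afp was called, as given above, and the others measured were not. Hnf4a, the nuclear receptor of hepatocyte identity, read 11.32 and 11.82, then 12.10 and 12.17 in 9A1, and 11.75 and 11.70, then 12.31 and 12.20 in 14B3 (difference -0.03 ± 0.23). Foxa1, a pioneer factor of endoderm, gave 0.42 ± 0.35. Krt19, a keratin of bile duct and progenitor cells, read 13.28 to 13.79 over the 8 arrays, so Hnf4a and Krt19, markers of the 2 fates, gave bright signal in all groups. Epcam, an adhesion molecule of progenitors and ducts, rose 29.1-fold in 9A1 and 24.4-fold in 14B3 (difference -0.26 ± 0.32). Krt7, another duct keratin, gave -0.01 ± 0.59, Krt19 gave -0.17 ± 0.23, and the duct factor Sox9 gave 0.06 ± 0.26. The progenitor antigen Dlk1 read 7.14 and 7.27, then 9.73 and 8.72 in 9A1, and 7.31 and 7.51, then 8.39 and 7.75 in 14B3 (difference -1.36 ± 0.44, adjusted p = 0.326). The laminin receptor subunit Itga6 gave -0.34 ± 0.23, Lamb1 -0.42 ± 0.22 and Cdh1 -0.81 ± 0.34. The gap junction genes Gjb1, of hepatocytes, and Gja1, of immature cells, gave -0.41 ± 0.25 and -0.95 ± 0.48. None of these passed the adjusted threshold, and the intervals for Krt7, Gja1 and Dlk1 are wide.

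Of the markers of other cells, 26 endothelial genes included Sox17, which rose in 14B3, and Cd34, which fell in 9A1. Both were called (7.69%, against 0.339% of all genes). In 9A1 none rose and 1 fell (3.85%, against 8.07%). In 14B3, 3 rose (11.5%, near the 8.91% of all genes) and 1 fell (3.85%, against 7.6%). The log2 of the summed intensity ran from 12.45 to 12.48, then 12.12 to 12.47 in 9A1. In 14B3 it ran from 12.61 to 12.76, then 12.78 to 12.99. This sum includes Sox17, the brightest of the list in Matrigel 14B3, so it does not speak for the other members. Cdh5, the cadherin of endothelium, read 7.27 and 7.98, then 8.48 and 8.87 in 14B3, and 7.02 to 7.31 in 9A1, and Vwf, the von Willebrand factor, rose by 0.70 in 14B3. Their differences did not pass (1.10, adjusted p = 0.242, and 0.80, adjusted p = 0.314). Pecam1 and Kdr, also endothelial, had differences of -0.05 and -0.09, and the part of endothelial cells in the Sox17 result was not tested.

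The line difference itself was read in each culture. In basal culture 236 genes differed between lines (1.9%, with 0.984% higher and 0.92% lower in 14B3), in Matrigel 467 (3.77%, with 1.36% higher and 2.41% lower) and in aggregates 189 (1.53%, with 0.605% higher and 0.92% lower). Of the 42, the lines were further apart in Matrigel for 29 and closer for 13; of the 43 the numbers were 28 and 15. For 26 of the 42 and 25 of the 43 a line difference was called in Matrigel and not in basal culture, and for 9 and 12 the reverse. The aggregate arrays give a line difference from other cultures: of the 31 and the 30 called in Matrigel, 14 and 13 were called in aggregates in the same direction, and 17 and 17 were not called there. The 14B3 minus 9A1 difference of Enpep was -6.13 in aggregates and -2.80 in Matrigel, and that of Heph -3.58 and -2.48. Sox17 was higher in 14B3 by 2.37 in aggregates and 4.32 in Matrigel. Adh1 and Fbln2, by contrast, had no called line difference in aggregates (-0.35 and 0.25). The difference in response, with aggregate in place of Matrigel culture, was -3.14 for Fabp1, -3.29 for Afp and -3.55 for Cldn6. For Cxcl1 it was 3.04 and for Cxcl5 2.84. All of these were called at an adjusted p under 0.05, so their unlike response was not particular to Matrigel. It was not called for Adh1 (-0.11), Acta2 (0.10) or Fbln2 (0.50). Both comparisons share the basal arrays.

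**Figure D4:**
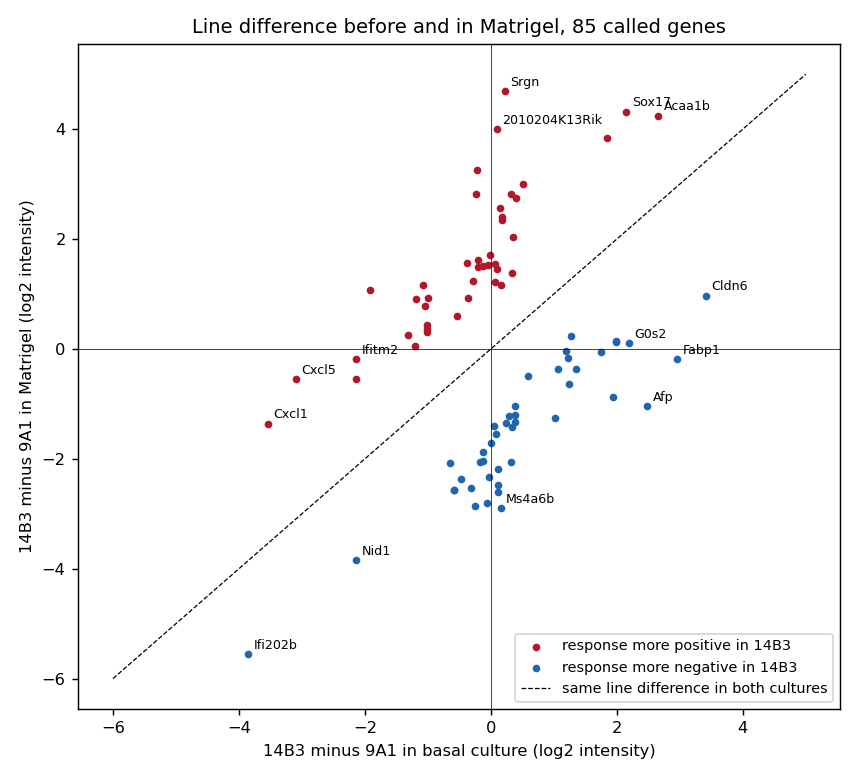
Each point is 1 of the 85 genes, with the 14B3 minus 9A1 difference in basal culture on the horizontal axis and in Matrigel on the vertical axis, in log2 intensity. Red genes responded more positively in 14B3 and blue more negatively; many lie near 0 on the horizontal axis and away from it in Matrigel, while Cxcl1, Cxcl5, Cldn6, Fabp1 and G0s2 differ more in basal culture.

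The Matrigel 14B3 arrays of 5 and 10 days were compared without a test, since each is 1 array. Over all genes, the SD of the 10 minus 5 day difference was 0.311, against 0.315 between the 9A1 Matrigel replicates, both of 10 days, and 0.231 and 0.236 between the basal replicates of 9A1 and 14B3. A difference of at least 1 was found in 37 genes for the 5 and 10 day arrays and in 42 for the 9A1 Matrigel replicates. Between the basal replicates it was found in 25 genes for 9A1 and 31 for 14B3. The replicate differences of the Matrigel groups also ran together across genes, with an r of 0.644, although only those of 14B3 differ in days. The arrays of 5 and 10 days therefore lay no further apart, in SD and in this count, than the 9A1 Matrigel replicates of 10 days. They lay further apart than the basal replicates of either line.

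For all 85 genes the sign of the difference was the same with the 5 day array alone and with the 10 day array alone, and the 2 sets of values had an r of 0.989 over genes, which share the other 6 arrays. The 85 were called on the mean of these 2 arrays, so the shared sign was largely set by that choice. It does not show that days of culture have no effect. Without the 5 day array 26 of the 42 and 25 of the 43 still passed, and without the 10 day array 28 and 23 did; 23 and 17 passed both times. The largest 10 minus 5 day differences among the 42 were -1.09 for Gstt2, 0.48 for C9 and 0.47 for Nepn. Among the 43 they were -0.65 for Abcc2, 0.63 for Scd1 and 0.63 for G0s2. Abcc2 was thus nearer to its 9A1 level on the 5 day array, and Scd1 on the 10 day array. Mitosis genes were higher at 10 than at 5 days by a median of 0.34, against -0.09 between the 9A1 Matrigel replicates. Over all genes these medians were 0.041 and 0.051. Other lists had gains of similar size at 10 days. The medians were 0.285 and 0.36 for genes of tissues not in culture, and 0.324 and 0.42 for hypoxia and glycolysis. Krt7 was at 11.27 at 5 days and 10.10 at 10.

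The calls differed in how far they rested on single arrays and settings. Of the 42 and the 43, 17 and 11 were called in every alternative, and of the called genes named by rule, 43 over both directions, 19 were. These 19 were Srgn, 2010204K13Rik, Nepn, Cxcl5, C9, Aqp8, Sox21, Tm4sf1, Cxcl1, Cd34, Sox17, Ms4a6b, Enpep, Ctla2b, Fbln2, Heph, Cldn6, Scd1 and Acta2. The other 24 lost the call in some alternative with their sign kept. Lamb3 and Lss held in 9 of 22 (adjusted p up to 0.178 and 0.184), Ambp and Crp in 11 of 21 (up to 0.132 and 0.154), Gstt2 in 13 of 21 and Guca2a in 13 of 22 (up to 0.135 and 0.124). Afp held in 15 of 22: its adjusted p was 0.0701 with 64 added before log2, 0.0538 without the 5 day array, 0.0605 without Matrigel 9A1 replicate 2, and 0.0529 to 0.0602 without single basal arrays. Fabp1 held in 18 of 22 and Adh1 in 17 of 22, with an adjusted p of at most 0.0732 and 0.0672. By array, 23 of the 24 lost the call without basal 9A1 replicate 1, 17 without basal 9A1 replicate 2, 16 and 19 without basal 14B3 replicates 1 and 2, 11 and 13 without Matrigel 9A1 replicates 1 and 2, and 12 and 11 without the 5 and the 10 day array of 14B3.

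**Figure D5:**
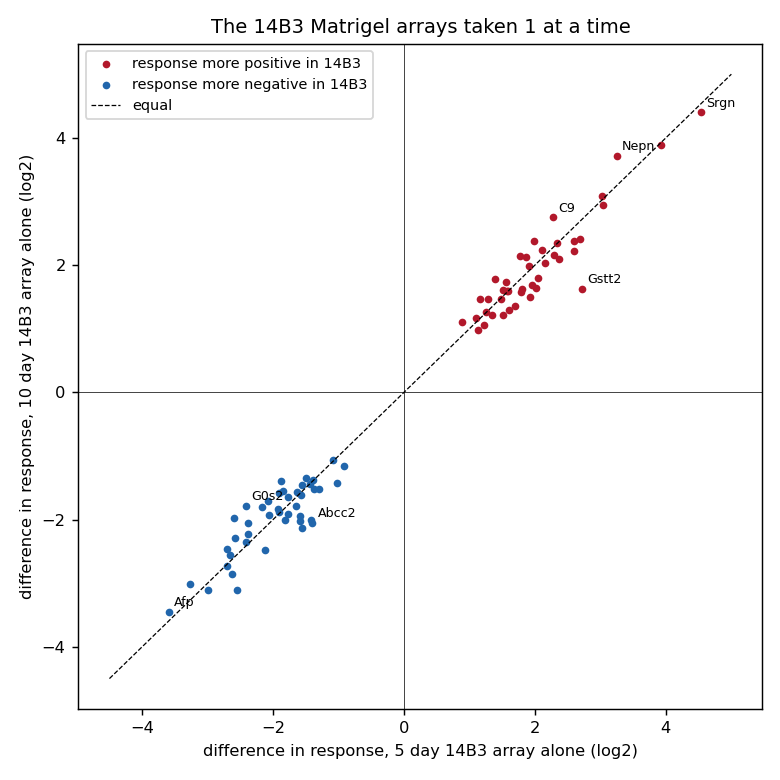
Each point is 1 of the 85 genes, with the difference in Matrigel response between lines (log2) computed from the 5 day 14B3 array alone on the horizontal axis and from the 10 day array alone on the vertical axis. All points keep their sign and lie near the dashed line of equality, with Gstt2 the furthest below it.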

How the data were processed

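Affymetrix mouse 430A arrays, 12 in all, measured the total RNA of BMEL cells in culture. The deposited values are signal intensity per probe set on a linear scale, from 14.4 to 27318, made with RMA in R 2.3.1 per the submitters' processing notes; normalization settings are not given in the sources used here. The log2 of each value was taken. Array counts limit the precision. Of 22690 probe sets, 20380 had 1 symbol in GEO's platform annotation, 691 several, 1555 none, and 64 were controls. Each of 12393 genes was read by its brightest probe set (4956 had several). Limma 3.58.1 in R 4.3.3 fitted a mean for each of 6 groups (6 residual degrees of freedom, median residual SD 0.17), two-sided, with Benjamini-Hochberg adjustment over all genes at 0.05. The fit was tested on simulated data.

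Same-numbered replicates deviated together in 15 of 15 pairs of groups (r from 0.101 to 0.644), so the numbers were taken to pair arrays, and the replicate block within a line is printed where it moves a result.

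Named genes were the 14 largest differences in each direction that were called and whose lines' array differences did not overlap, up to 3 called genes of each list, fixed markers, and the 3 largest 5 to 10 day differences in each direction. Members and lists were chosen with earlier results of these data known. Called genes named outside this rule, and list members named without a call, were chosen after their values were seen. Alternatives covered pairing, left-out arrays, scaling, low values, probe sets, variance and weights.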

Additional observations from a re-analysis of the deposited data

Results flagged for a closer look

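Each named gene whose response to Matrigel differed between the lines by the interaction test at an adjusted p under 0.05 stood out for that reason, with the difference (14B3 minus 9A1, log2) as the value. The reasons for these differences were not tested.

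More positive in 14B3 were the proteoglycan genes Srgn at 4.47 and Nepn at 3.49, and the transcription factor genes Sox21 at 2.41 and Sox17 at 2.17. The enzyme and transport genes were Adh1 at 3.06, Aqp8 at 2.49, B4galnt2 at 2.34 and Gstt2 at 2.17. The secreted or inhibitor genes were Serpinb9b at 2.99, C9 at 2.51 and Clca1 at 2.23. The membrane gene Tm4sf1 was at 2.23, and 2010204K13Rik, known by its clone name, at 3.90. Falls in 9A1 gave Cxcl5 at 2.55, Cxcl1 at 2.18 and Cd34 at 1.56.

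More negative in 14B3 were the liver genes Afp at -3.52, Fabp1 at -3.14, Ambp at -2.38, Crp at -2.30, Scd1 at -2.29 and Abcc2 at -1.73. The gut genes were Enpep at -2.74, Heph at -2.58, Tff3 at -2.31, Ccl25 at -1.59 and Guca2a at -1.51. Matrix and contractile genes were Lamb3 at -2.82, Fbln2 at -2.61, Col6a1 at -2.22, Nid1 at -1.71, Col5a1 at -1.71, Acta2 at -1.90, Tnnt2 at -1.90 and Tagln at -1.75. The rest were Ms4a6b at -3.06, Ctla2b at -2.72, Cldn6 at -2.44, G0s2 at -2.10, Chac1 at -1.84, Ncam1 at -1.77, Pdgfc at -1.41 and Lss at -1.23.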

How the results depend on the processing

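All 85 differences in response kept their sign wherever they could be fitted in the 23 alternatives, but their number moved with the setting. With the replicate block within each line 70 genes were higher and 95 lower, and with the block shared by both lines 78 and 108; the block took away none of the 85 calls. Adding 64 before log2 left 22 lower, and testing only genes above the median level left 16 higher and 21 lower. Asking for a size of at least 1 log2 unit left 846 responses in 9A1 and 738 in 14B3. Leaving out 1 array at a time gave 18 to 45 higher and 12 to 60 lower genes, 981 to 2246 responses in 9A1 and 907 to 2097 in 14B3. The arrays whose absence moved a count by over 1.5 times were basal 9A1 replicate 1 (18 higher, 12 lower, 981 responses in 9A1), basal 9A1 replicate 2 (25 and 22), basal 14B3 replicate 1 (23 and 27, and 907 responses in 14B3), basal 14B3 replicate 2 (25 and 19), Matrigel 9A1 replicate 2 (27 higher, 1339 responses in 9A1) and the 10 day Matrigel 14B3 array (25 lower, 1201 responses in 14B3). A group left with 1 array is assumed to vary like the others. Over single genes, 1100 values kept their side of the threshold, 155 lost the call and 18 changed sign, all in genes with no call: Ttr to 0.119, 0.051 and 0.108 without single arrays (lowest -0.45); Hnf4a to 0.055 with the mean of probe sets, 0.026 with median centring and 0.028, 0.009 and 0.223 without single arrays (lowest -0.279); Krt7 to 0.046 with median centring, 0.008 with 64 added, 0.006 with quantile normalization and 0.578, 0.242, 0.171 and 0.231 without single arrays (lowest -0.595); Sox9 to -0.108, -0.007 and -0.122 without single arrays (highest 0.235). The causes were not tested.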
